A study of Homo sapiens with 8 samples.

Results

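NF2 and 9 other genes of the Hippo pathway (YAP1, WWTR1, LATS1, LATS2, TEAD1, CTGF, CYR61, ANKRD1 and AMOTL2) were followed across 8 two-colour Agilent arrays, out of 43317 genes on the array design. The set was chosen by measured values: it was built around NF2, whose ratio of treated over mock RNA was the lowest of all genes under miR-532-3p. The ratios of the 10 genes are therefore given as a description, with no test. Every gene was found by its symbol: 3 of the genes (NF2, WWTR1 and LATS1) had 2 probes and the other 7 had 1 probe. CTGF and CYR61 are named CCN2 and CCN1 in the current RefSeq table.

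The arrays came from a study of genes that follow transfection of a microRNA (miRNA) strand, or a small-molecule inhibitor, in human cancer cell lines. PC3 cells, a prostate cancer line, were given bisamide for 24 h or 48 h, or miR-125b-1-3p. C4-2 cells, prostate cancer cells derived from LNCaP, were transfected with miR-199-3p, 786-O renal cancer cells with miR-532-5p or miR-532-3p, and T24 bladder cancer cells with miR-140-5p or miR-140-3p. On every array Cy3 carried RNA of mock cells of the same line, listed in the labels as not transfected, and Cy5 carried RNA of the treated cells. Bisamide, a small molecule described as an inhibitor of pirin (PIR), is entered in the labels as a transfection, and the labels give neither its dose nor the time after miRNA transfection. Each of the 8 groups held 1 array of 1 line, the dyes were not swapped, and all arrays lay on 1 slide read in 1 scan. A ratio without replicates carries no error between cultures, and precision is limited by the number of arrays.

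The Hippo pathway is a kinase cascade that restrains growth when cells are crowded or detached from mechanical tension. NF2 encodes merlin, a tumour suppressor at the cell cortex that promotes activation of the kinases LATS1 and LATS2. Active LATS kinases phosphorylate YAP1 and WWTR1 (also called TAZ) and keep both coactivators out of the nucleus. When the kinases are less active, YAP1 and WWTR1 bind TEAD transcription factors such as TEAD1 and switch on targets that include CTGF, CYR61, ANKRD1 and AMOTL2. AMOTL2 in turn binds YAP1 and is part of a negative feedback. Loss of NF2 is known from schwannoma, meningioma, mesothelioma and a subset of renal cancers.

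The miRNA strands that were transfected define the treatments, and their seeds (bases 2 to 8, in capitals) decide which transcripts a strand can pair with. The mature sequences are those of RefSeq on GRCh38.p14. miR-532-5p lies at chrX:50003167-50003188 and miR-532-3p at chrX:50003204-50003225, in 1 hairpin on the plus strand. miR-140-5p lies at chr16:69933103-69933124 and miR-140-3p at chr16:69933142-69933162, also on the plus strand of 1 hairpin. miR-125b-1-3p lies at chr11:122099769-122099790 on the minus strand. The label miR-199-3p does not name a locus; miR-199a-3p and miR-199b-3p have the same mature sequence.
miR-532-3p: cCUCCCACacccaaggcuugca
miR-532-5p: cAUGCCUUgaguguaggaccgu
miR-140-5p: cAGUGGUUuuacccuaugguag
miR-140-3p: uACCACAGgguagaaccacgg
miR-199a-3p and miR-199b-3p: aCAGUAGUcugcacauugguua
miR-125b-1-3p: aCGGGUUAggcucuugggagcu
Apart from the shared sequence of the miR-199 pair, no seed was shared, so the arrays are not repeats of 1 seed. The seed match of miR-532-3p, GTGGGAG, was found in 239 of 58201 probes (0.411%) and in neither probe of NF2. Of the 13 probes for the 10 genes, 1 held a seed match of any transfected strand, that of ANKRD1 for miR-532-5p (AAGGCAT, present in 0.486% of all probes). These matches describe the 60 bases of a probe and not the whole transcript, which was not analysed here.

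Depth and identity of the samples were read from the raw signals. An array had 15442 to 19240 genes well above background in both channels, and no spot was saturated. Among 300 probes printed as 10 spots, the median SD of the log2 ratio within an array was 0.0389 to 0.0527. KLK3, a prostate marker, had a raw Cy3 signal of 13590 in C4-2 and of 21.4 to 22.6 elsewhere. PAX8 and PAX2, markers of the renal lineage, were well above background in the mock of 786-O (235 and 239 for PAX8, 124 and 112 for PAX2) and read higher in the mock labelled T24 (390 and 423, 551 and 619). The urothelial markers UPK2 and GATA3 were not well above background in the arrays labelled T24, whereas PPARG was, at 123 and 130. PPARG was well above background in every other line too and read highest in PC3, at 872, 931 and 1214. CA9, a marker of clear cell renal cancer, was not well above background on any array. The label T24 is kept below, and what part its marker pattern has in the values of these 2 arrays was not tested. In PC3 the mock of the miR-125b-1-3p array differed from those of bisamide, with raw signals of 477 against 121 and 119 for EPCAM, an epithelial adhesion molecule.

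Values below compare treated with mock RNA as log2 ratios after background correction and loess normalization within an array, unless a sentence names another scale. Loess removes the trend of the ratio with brightness: a bright spot with more Cy5 than Cy3 can have a ratio under 0. A gene was counted as lower or higher when both channels were well above background and its ratio was past 0.5 in size.

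NF2 was the lowest of 15442 genes with miR-532-3p. In PC3 the brighter probe of NF2 (chr22:30094507-30094566, GRCh37) was at −0.51 and −0.51 after 24 h and 48 h of bisamide and at −0.49 under miR-125b-1-3p. It was at 0.23 in C4-2 under miR-199-3p, in 786-O at 0.08 under miR-532-5p and −2.10 under miR-532-3p, and in the arrays labelled T24 at −0.88 under miR-140-5p and −0.04 under miR-140-3p. The raw signals of this probe were 1384 in Cy3 and 423 in Cy5 under miR-532-3p. In the same line under miR-532-5p they were 1314 and 1295. Both 786-O arrays carry 1 mock code and their mock RNA was taken as shared, so near-equal mock signals follow from the design. The gap in merlin mRNA between these arrays lay in the treated channel. The other lower values, from PC3 and from miR-140-5p, stood at raw Cy5 signals above Cy3: 6348 against 4553 at 24 h of bisamide, 7728 against 5488 at 48 h, 6287 against 4745 with miR-125b-1-3p and 4426 against 4087 with miR-140-5p. These 4 values were also below 0 by the ratio of the scanner software, at −0.54, −0.54, −0.50 and −0.88. Centring each array on its median in place of loess turned all 4 above 0, to 0.41, 0.43, 0.34 and 0.078. With that centring the median of all genes also moved, to 0.46, 0.44, 0.43 and 0.36 on these arrays. With miR-532-3p NF2 was at −1.63 after median centring, where the median of all genes was 0.18, and at −2.22 to −2.26 with other background corrections and with the scanner's own ratio.

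The second probe of NF2 (chr22:30077460-30077519) was dimmer, and its ratio was smaller in size on every array but that of miR-140-3p. In PC3 this probe was at −0.32 and −0.37 after 24 h and 48 h of bisamide and at −0.21 under miR-125b-1-3p. It was at −0.10 in C4-2 under miR-199-3p, in 786-O at −0.01 under miR-532-5p and −0.47 under miR-532-3p, and in the arrays labelled T24 at −0.19 under miR-140-5p and 0.24 under miR-140-3p. With miR-532-3p its raw signals were 49.3 in Cy3 and 28.0 in Cy5, and the offset of 50 added to both channels draws such dim ratios toward 0. With an offset of 0 it was at −1.53 on that array, and the scanner's own ratio gave −1.81. Both probes were lowest with miR-532-3p, and they differed in sign under miR-199-3p, under miR-140-3p and, at values near 0, under miR-532-5p. The mean of both probes was −1.29 with miR-532-3p.

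**Figure D1:**
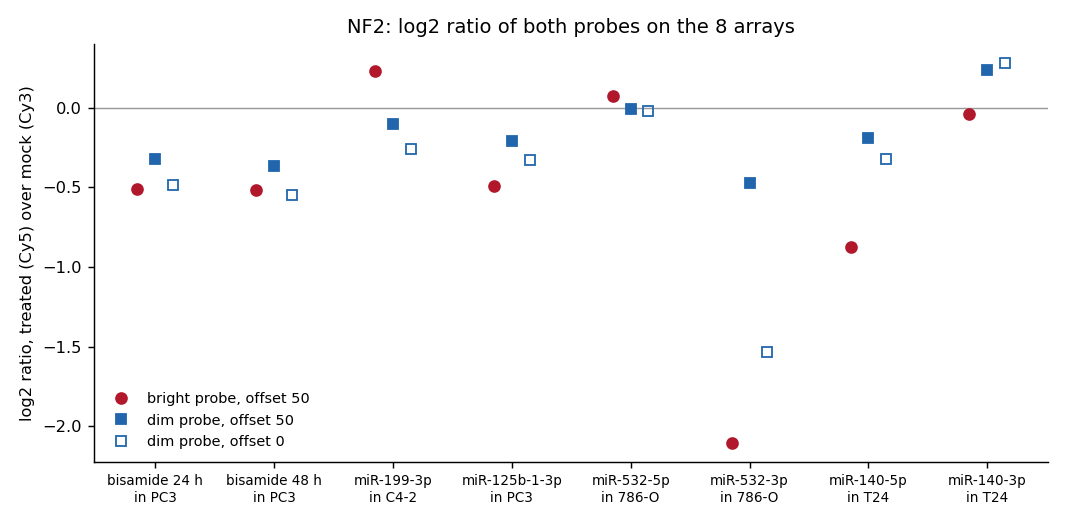
Log2 ratio of treated (Cy5) over mock (Cy3) RNA for both NF2 probes on the 8 arrays, 1 array for each treatment and no error bars. Filled circles are the brighter probe, filled squares the dimmer probe and open squares the dimmer probe with an offset of 0; both probes are lowest with miR-532-3p, at −2.10, −0.47 and −1.53.

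NF2 also had a low ratio on several other arrays. On the array of miR-140-5p it was the 91st lowest of 17624 genes, at 24 h of bisamide the 75th of 19240, at 48 h the 146th of 19020 and with miR-125b-1-3p the 175th of 18693. With its median over the other 7 arrays taken off, NF2 was at −1.61 with miR-532-3p and −0.39 with miR-140-5p. On both bisamide arrays it was then at −0.02, and with miR-125b-1-3p at 0.02. Only the miR-532-3p array kept NF2 past 0.5 downward in this setting, but NF2 was chosen for its value on that array. On each PC3 array the median taken off was itself the value of another PC3 array. The ratios near 0 there thus follow from the like values in PC3.

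The LATS kinases, which act directly below NF2, had measured ratios of −0.03 to 0.22. LATS2 (chr13:21547929-21547988) was well above background in both channels of all 8 arrays. In PC3 LATS2 was at 0.03 and 0.05 after 24 h and 48 h of bisamide and at 0.09 under miR-125b-1-3p. LATS2 was at 0.02 in C4-2 under miR-199-3p, in 786-O at 0.05 under miR-532-5p and 0.08 under miR-532-3p, and in the arrays labelled T24 at 0.22 under miR-140-5p and 0.03 under miR-140-3p. LATS1 was dim: its brighter probe (chr6:150022916-150022975) had raw signals of 18.4 to 42.5 and was measured in both channels on 5 arrays. There it was at 0.01 and −0.03 with bisamide, 0.11 in C4-2, and 0.01 and 0.003 in the arrays labelled T24 under the 5p and the 3p strand. The second LATS1 probe (chr6:149982383-149982442) had fitted ratios of −0.03 to 0.06 over all arrays. The offset draws such dim ratios toward 0: with an offset of 0 the brighter LATS1 probe was at 0.38 in C4-2, and the scanner software gave 0.37.

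The coactivators differed from each other and between treatments. YAP1 (chr11:102100584-102100643) was printed as 10 spots on each array, so its ratio has an error within the array. In PC3 YAP1 was at 0.10 ± 0.053 (SD, 10 spots) after 24 h and 0.20 ± 0.045 (9 spots) after 48 h of bisamide, and at 0.11 ± 0.042 (10 spots) under miR-125b-1-3p. In C4-2 it was at −0.05 ± 0.065 (8 spots). In 786-O it was at −0.50 ± 0.049 (9 spots) under miR-532-5p and −0.26 ± 0.048 (10 spots) under miR-532-3p. The arrays labelled T24 gave 0.09 ± 0.046 (8 spots) under miR-140-5p and 0.16 ± 0.052 (10 spots) under miR-140-3p. Both 786-O arrays were below the other 6, and their spots did not overlap: −0.59 to −0.45 with miR-532-5p and −0.32 to −0.18 with miR-532-3p. Spots repeat 1 hybridisation, so the SD leaves out the spread between cultures. With an offset of 0 YAP1 was at −0.96 and −0.42 on these arrays. Median centring put it at −0.58 and −0.02, where the median of all genes was −0.03 and 0.18. In PC3 WWTR1 (chr3:149238593-149238652), the paralogue of YAP1, was at −0.21 and −0.25 after 24 h and 48 h of bisamide and at −0.12 under miR-125b-1-3p. It was at −0.29 and −0.16 in 786-O under the 5p and the 3p strand of miR-532, and at 0.32 and 0.14 in the arrays labelled T24 under the 5p and the 3p strand of miR-140. In C4-2 neither probe of WWTR1 was well above background in either channel. The second WWTR1 probe (chr3:149419490-149419549) was measured in both channels on the 3 PC3 arrays alone, at −0.02, −0.09 and 0.06. The brighter probe of WWTR1 was thus below 0 on all PC3 and 786-O arrays and above 0 on both arrays labelled T24, but no value passed 0.5. Median centring turned the values of PC3 and of miR-532-3p above 0. After 24 h and 48 h of bisamide WWTR1 was then at 0.42 and 0.39, still below the medians of all genes, 0.46 and 0.44.

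In PC3 TEAD1, the DNA-binding partner of both coactivators (chr11:12965225-12965284), was at −0.02 and −0.24 after 24 h and 48 h of bisamide and at −0.03 under miR-125b-1-3p. TEAD1 was at 0.44 in C4-2 under miR-199-3p, in 786-O at −0.13 under miR-532-5p and −0.22 under miR-532-3p, and in the arrays labelled T24 at −0.13 under miR-140-5p and −0.09 under miR-140-3p. It was above 0 on the C4-2 array alone, where its raw signals were 70.5 in Cy3 and 144 in Cy5. Median centring put it above 0 on 7 arrays, where the median of all genes was then above 0 too, and at −0.26 with miR-532-5p. With an offset of 0 it was at 0.68 with miR-199-3p.

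**Figure D2:**
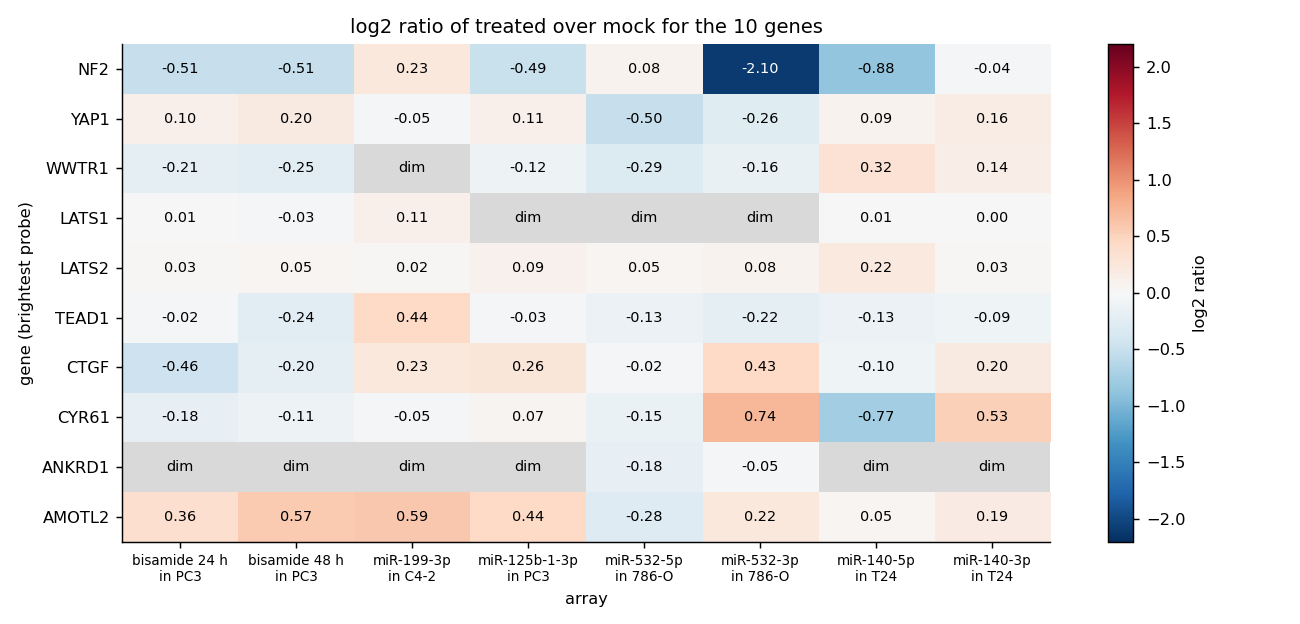
Log2 ratio of treated over mock RNA for the 10 genes (rows, brightest probe) on the 8 arrays (columns), with 1 array for each treatment. Grey cells marked dim were not well above background in both channels; NF2 with miR-532-3p (−2.10) is the one value past 1.0 in size.

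The target genes of YAP1, WWTR1 and TEAD were on 1 side of 0 on 3 arrays: all 3 measured targets were above 0 under miR-125b-1-3p and under miR-140-3p, and all 4 were below 0 under miR-532-5p. On the other 5 arrays they were split. The share of all genes on either side of 0 was not computed, so these sides are no result about the targets. CTGF, at −0.02 under miR-532-5p, stood above 46.2% of genes there. Median centring kept these sides, although CTGF, at 0.36 under miR-140-3p, then lay below the median of all genes of 0.46. It also put all 3 measured targets above 0 on both bisamide arrays and under miR-199-3p. CTGF, at 0.02 and 0.36 with bisamide, still lay below the medians of all genes there, 0.46 and 0.44. CYR61, at 0.63 and 0.71, and AMOTL2, at 1.05 and 1.27, lay above these medians. Read against 0, the split on these 3 arrays thus depends on the normalization. CYR61 (chr1:86048953-86049012), which encodes a secreted matrix protein, was bright on all arrays. In PC3 CYR61 was at −0.18 and −0.11 after 24 h and 48 h of bisamide and at 0.07 under miR-125b-1-3p. CYR61 was at −0.05 in C4-2 under miR-199-3p, in 786-O at −0.15 under miR-532-5p and 0.74 under miR-532-3p, and in the arrays labelled T24 at −0.77 under miR-140-5p and 0.53 under miR-140-3p. With miR-532-3p it stood above 99.7% of genes, and its raw Cy5 signals were 4723 there and 1473 with miR-532-5p, against Cy3 signals of 1784 and 1740. In T24 it stood above 0.885% of genes under miR-140-5p and above 99.2% under miR-140-3p, at raw Cy5 signals of 4445 and 11320. With median centring it was at 1.38 with miR-532-3p, and at 0.18 and 1.56 under the 5p and the 3p strand of miR-140.

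CTGF (chr6:132270130-132270189), which encodes a related secreted protein, had weaker signals. In PC3 CTGF was at −0.46 and −0.20 after 24 h and 48 h of bisamide and at 0.26 under miR-125b-1-3p. CTGF was at 0.23 in C4-2 under miR-199-3p, in 786-O at −0.02 under miR-532-5p and 0.43 under miR-532-3p, and in the arrays labelled T24 at −0.10 under miR-140-5p and 0.20 under miR-140-3p. Its lowest ratio was at 24 h of bisamide, with raw signals of 127 in Cy3 and 135 in Cy5, and its highest with miR-532-3p, with 44.5 and 80.8. With an offset of 0 these were −0.72 and 0.96, and CTGF then also passed 0.5 under miR-199-3p, at 0.69, and in the arrays labelled T24, at −0.60 and 0.75. Median centring put the value at 24 h at 0.02. With miR-532-3p, the array where NF2 was lowest, CTGF and CYR61 were both above 0 and YAP1, WWTR1 and TEAD1 below 0. Of the remaining targets in the set, AMOTL2 was at 0.22 there and ANKRD1 at −0.05. Among 13 further targets measured there, 2 were lower and 2 higher. How these values relate to NF2 was not tested. With miR-532-3p median centring left CTGF and CYR61 above 0 and put WWTR1 and TEAD1 at 0.10 and 0.12, below the median of all genes of 0.18.

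In PC3 AMOTL2 (chr3:134074742-134074801) was at 0.36 and 0.57 after 24 h and 48 h of bisamide and at 0.44 under miR-125b-1-3p. AMOTL2 was at 0.59 in C4-2 under miR-199-3p, in 786-O at −0.28 under miR-532-5p and 0.22 under miR-532-3p, and in the arrays labelled T24 at 0.05 under miR-140-5p and 0.19 under miR-140-3p. It was above 0 on 7 of the 8 arrays and stood above 99.4% of genes at 48 h of bisamide. With its median over the other 7 arrays taken off it was at 0.34 at 48 h and 0.37 with miR-199-3p, and at −0.64 with miR-532-5p. ANKRD1 (chr10:92672562-92672621), a cardiac ankyrin repeat gene, was measured in both channels in 786-O alone, at −0.18 with miR-532-5p and −0.05 with miR-532-3p. Its value under miR-532-5p was −0.97 with an offset of 0, and by the ratio of the scanner software −1.07, past the threshold. Its raw signals were at most 33.0, and on the other 6 arrays it was not well above background in either channel.

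TEAD factors bind the motif GGAATG, and the promoter of CTGF (CCN2), a standard readout of the pathway, shows it 3 times in the 250 bases before the start. The sequence is that of RefSeq at chr6:131951373-131951622 on GRCh38.p14, minus strand, with the motif in capitals.
CCN2 promoter: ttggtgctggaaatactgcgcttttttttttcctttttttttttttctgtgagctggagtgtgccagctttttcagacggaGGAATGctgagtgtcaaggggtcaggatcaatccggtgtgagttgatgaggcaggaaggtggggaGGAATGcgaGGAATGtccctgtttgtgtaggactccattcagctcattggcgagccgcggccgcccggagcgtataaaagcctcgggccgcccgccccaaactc
The motif was searched on both strands (GGAATG or CATTCC) in all 35116 promoters of the table, and 11.9% held it. The table matched 8 of the 10 genes, TEAD1 and CYR61 (CCN1) not among them, with 12 promoters. Of these, 4 held the motif: 1 each of CCN2, ANKRD1, YAP1 and AMOTL2. A match is a description of the letters and not a bound site.

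Past 0.5 in size, few of the 10 genes were counted, and the counts are read against the share of all genes past the same size on that array. NF2 was in the lower count of 4 arrays, and its choice fixed that of miR-532-3p. At 24 h of bisamide 1 of 9 measured genes was lower (NF2) and none higher, against 0.411% and 1.05% of all genes. With an offset of 0, plain subtraction or no background correction NF2 was at −0.477 to −0.490 at 24 h and −0.481 to −0.498 at 48 h, short of the threshold, and CTGF, at −0.58 to −0.72, was counted at 24 h in its place. At 48 h 1 was lower (NF2) and 1 higher (AMOTL2) of 9, against 0.883% and 0.91%. With miR-199-3p none was lower and 1 higher (AMOTL2) of 8, against 2.74% and 1.75%, and with miR-125b-1-3p none of 8 in either direction, against 0.883% and 1.77%. In 786-O, miR-532-5p gave 1 lower (YAP1) and none higher of 9, against 3.67% and 3.61%. There miR-532-3p gave 1 lower (NF2) and 1 higher (CYR61) of 9, against 3.83% and 1.71%. In the arrays labelled T24, miR-140-5p gave 2 lower (NF2 and CYR61) and none higher of 9, against 2.89% and 1.74%, and miR-140-3p none lower and 1 higher (CYR61) of 9, against 1.1% and 0.992%. The median over the 10 genes, dim ones included, was −0.01, −0.09, 0.06, 0.04, −0.14, 0.02, −0.02 and 0.08 in the order of arrays above. Over the measured genes alone it was −0.02, −0.11, 0.17, 0.08, −0.15, −0.05, 0.01 and 0.14. Its sign thus differed between these sets with miR-532-3p and with miR-140-5p. The median of all genes, taken over measured genes, was between −0.0001 and 0.016.

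**Figure D3:**
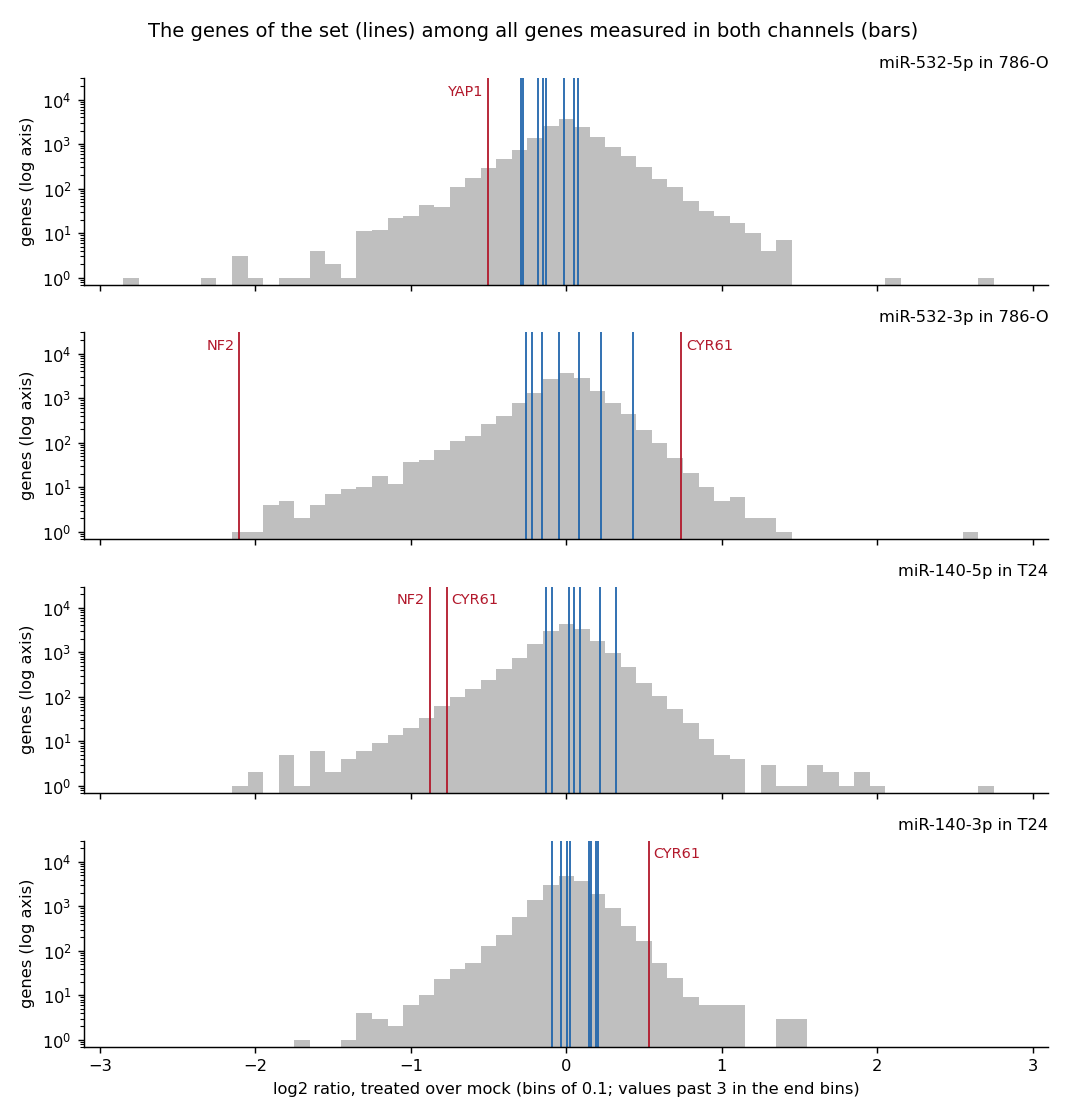
Number of genes (log axis) in each bin of the log2 ratio, over all genes well above background in both channels, for both strands of miR-532 in 786-O and of miR-140 in the arrays labelled T24. Lines are the genes of the Hippo set, red and named where past 0.5 in size; NF2 lies at the lower edge with miR-532-3p, and CYR61 lies on opposite sides with both strands of miR-140.

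Other genes of the pathway were read from lists by role. Of 28 further upstream genes, 23 to 26 were measured on an array, and at most 2 were lower and 1 higher, on arrays where 0.411% to 3.83% of all genes were lower and 0.91% to 3.61% higher. TAOK2, a kinase upstream of the MST kinases, was at 1.05 and 0.55 in 786-O under the 5p and the 3p strand of miR-532. WWC1 (KIBRA), a partner of merlin, was at −0.50 under miR-532-5p, and at −0.74 and −0.53 under the 5p and the 3p strand of miR-140. AJUBA, an inhibitor of LATS kinases, was at 0.51 and 0.62 after 24 h and 48 h of bisamide and at −0.57 under miR-140-5p. SIKE1, a component of a phosphatase complex that opposes the MST kinases, was at 0.58 under miR-140-5p, and the MST1 gene STK4 at 0.52 under miR-140-3p. The list medians were between −0.12 and 0.11. Of 7 further TEAD and VGLL genes, 4 or 5 were measured on an array and none passed 0.5. Besides those that pass 1.0, the genes of the lists were named after their values were seen.

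Of 16 further target genes of YAP and TAZ, 7 to 13 were measured, and the largest counts were on the arrays of miR-532-3p and miR-140-5p. With miR-532-3p, 2 of 13 were lower, IGFBP3 at −1.23 and NT5E at −0.65, and 2 higher, NUAK2 at 0.74 and GADD45A at 0.55, against 3.83% and 1.71% of all genes. IGFBP3 binds insulin-like growth factors and NT5E is the ectonucleotidase CD73. With miR-532-5p in the same line, IGFBP3 was at −0.90 and NT5E at 1.37. With miR-140-5p, 3 of 11 were lower (NUAK2 at −0.87, MYOF at −0.82 and GADD45A at −0.76) and NT5E was higher at 0.75, against 2.89% and 1.74% of all genes. GADD45A was at −0.84 with miR-140-3p. With miR-125b-1-3p, FJX1 was at 0.77 and NUAK2 at 0.67, where 1.77% of all genes were higher, and with bisamide and miR-199-3p no gene of the list passed 0.5. The list median was 0.15 with miR-532-3p and −0.08 with miR-140-5p, and between 0.03 and 0.11 elsewhere.

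Merlin is a relative of ezrin, radixin and moesin, and 6 genes of these proteins, spectrins and the scaffold SLC9A3R1 were read beside it. EZR (ezrin) was at −0.72 with miR-532-5p and −0.67 with miR-532-3p, where 3.67% and 3.83% of all genes were lower. SLC9A3R1 was at 0.87 with miR-199-3p, where 1.75% of all genes were higher. No other value of these genes passed 0.5, and the list median was lowest with miR-532-3p, at −0.34, where that of all genes was −0.0001.

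The genes whose ratios were most like those of NF2 over the 8 arrays were sought among 838 genes measured in both channels of every array with a range of at least 1. They were PCTP, ARPC5, GUCD1, SUCO and PERP, with Pearson's r of 0.981, 0.966, 0.962, 0.954 and 0.945 and Spearman's rho of 0.905, 0.929, 0.905, 0.905 and 0.952. Their own ratios with miR-532-3p were −1.04, −1.25, −0.75, −0.81 and −1.97. Without the 2 arrays where NF2 was farthest from its median, those of miR-532-3p and miR-199-3p, r over 6 arrays was 0.896, 0.818, 0.759, 0.799 and 0.789. These r describe 8 arrays that share 1 slide and, apart from that of C4-2, a cell line with another array, and the genes were picked for a high r.

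Levels of the genes in mock cells were compared next, because the mock channel of an array was not used to choose the set, apart from the 786-O mock that divides the NF2 ratio. The comparison used log2 Cy3 signals after quantile normalization, in 6 samples: 3 of PC3, 1 of C4-2, and the pairs of 786-O and of T24 averaged to 1 sample each, since the deposited files carry 1 mock code for each pair. The spread came from PC3 alone, with 2 residual degrees of freedom, and the single samples of the other lines were assumed to vary like it, so that comparisons among C4-2, 786-O and T24 set 1 sample against 1 and borrow their whole spread from PC3. The labels do not say whether the PC3 mocks were separate cultures, so p-values measure only the spread between these samples. Levels here are of RNA in equal amounts of labelled material, and fewer cells and less RNA per cell cannot be told apart.

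NF2 was lowest in C4-2. Its log2 mock level was 11.58, 11.94 and 11.68 in PC3, 9.29 in C4-2, 11.04 and 11.15 in 786-O and 11.91 and 11.91 in T24. Against PC3 it was 5.42-fold lower in C4-2 (log2 difference −2.44, SE 0.18, limma with Benjamini-Hochberg adjusted p = 0.000251) and 1.55-fold lower in 786-O (adjusted p = 0.0346). T24 and PC3 did not differ beyond their spread (log2 difference 0.18, SE 0.18, adjusted p = 0.472). These values are of the brighter probe, by which the order was C4-2, then 786-O, then PC3 and T24. The dimmer NF2 probe, well above background in every mock, was at 7.19, 7.16 and 7.09 in PC3 and 6.60 in C4-2. It was at 6.70 and 6.69 in 786-O and at 6.96 and 7.02 in T24. By that probe C4-2 was still lowest, but close to 786-O, and T24 lay below PC3. At such dim signals the offset of 50 narrows differences, so the size of the gap rests on the brighter probe.

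The coactivators and TEAD1 were also lower in C4-2 than in some lines, but not alike. WWTR1 was at 7.88, 8.11 and 8.31 in PC3, 7.80 and 7.78 in 786-O and 7.25 and 7.20 in T24, and at 5.81 and not well above background in C4-2. It was at least 4.56-fold higher in PC3 than in C4-2 (adjusted p = 0.000351), at least 3.69-fold higher in 786-O (adjusted p = 0.00141) and at least 2.50-fold higher in T24 (adjusted p = 0.00494), with bounds set by the dimmest signal called above background. TEAD1 was at 8.81, 8.75 and 8.87 in PC3, 7.15 in C4-2, 8.64 and 8.69 in 786-O and 8.24 and 8.17 in T24, which is 3.17-fold lower in C4-2 than in PC3 (adjusted p = 0.000315). YAP1 had its lowest level in 786-O instead, at 7.58 and 7.67, against 8.21, 8.15 and 8.22 in PC3, 7.97 in C4-2 and 8.43 and 8.46 in T24. Its level in 786-O was 1.48-fold lower than in PC3 (adjusted p = 0.0147) and 1.77-fold lower than in T24 (adjusted p = 0.0126). C4-2 did not differ beyond the spread from PC3 (log2 difference −0.23, SE 0.12, adjusted p = 0.162) or from 786-O (adjusted p = 0.115).

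Among the targets, CYR61 and AMOTL2 were highest in the 786-O and T24 lines and CTGF in PC3. CYR61 was at 10.04, 10.13 and 10.34 in PC3, 10.83 in C4-2, a mean of 11.47 in 786-O and 11.82 and 11.77 in T24, which is 3.08-fold higher in T24 than in PC3 (adjusted p = 0.00163). AMOTL2 was at 8.11, 8.32 and 8.16 in PC3, 7.81 in C4-2, 9.66 and 9.69 in 786-O and 9.25 and 9.28 in T24, which is 2.78-fold higher in 786-O than in PC3 (adjusted p = 0.00115). CTGF was at 7.07 ± 0.32 in PC3 (SD, n = 3; lowest 6.80, highest 7.42), 6.22 in C4-2, 6.74 and 6.57 in 786-O and 5.91 and 5.95 in T24. It was 2.21-fold lower in T24 than in PC3 (adjusted p = 0.0153), a direction opposite to that of CYR61 in the same pair of lines. Its adjusted p over the 4 lines by limma went from 0.0192 to 0.055 without the PC3 mock of the 24 h bisamide array. CTGF did not differ beyond the spread between 786-O and PC3 (log2 difference −0.42, SE 0.23, adjusted p = 0.201).

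The kinases and ANKRD1 completed the set. LATS2 was at 6.17, 6.25 and 6.16 in PC3, 6.05 in C4-2, 6.51 and 6.63 in 786-O and a mean of 7.02 in T24, which is 1.77-fold higher in T24 than in PC3 (adjusted p = 0.00113). The brighter probe of LATS1 was at 5.90, 5.90 and 5.86 in PC3, 6.19 in C4-2, 5.79 and 5.80 in 786-O and 5.94 and 5.95 in T24. It was not well above background in 786-O and was at least 1.28-fold higher in C4-2 than there. The second LATS1 probe did not show this rise. It was at 5.86 and not well above background in C4-2, against 5.82 and 5.84 in 786-O and 5.84 to 5.88 in PC3. In the counts below, the brighter probe alone stands for LATS1. ANKRD1 was well above background in 786-O alone, at 6.21 and 6.07, and at least 1.25-fold higher there than in PC3 (adjusted p = 0.00185).

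**Figure D4:**
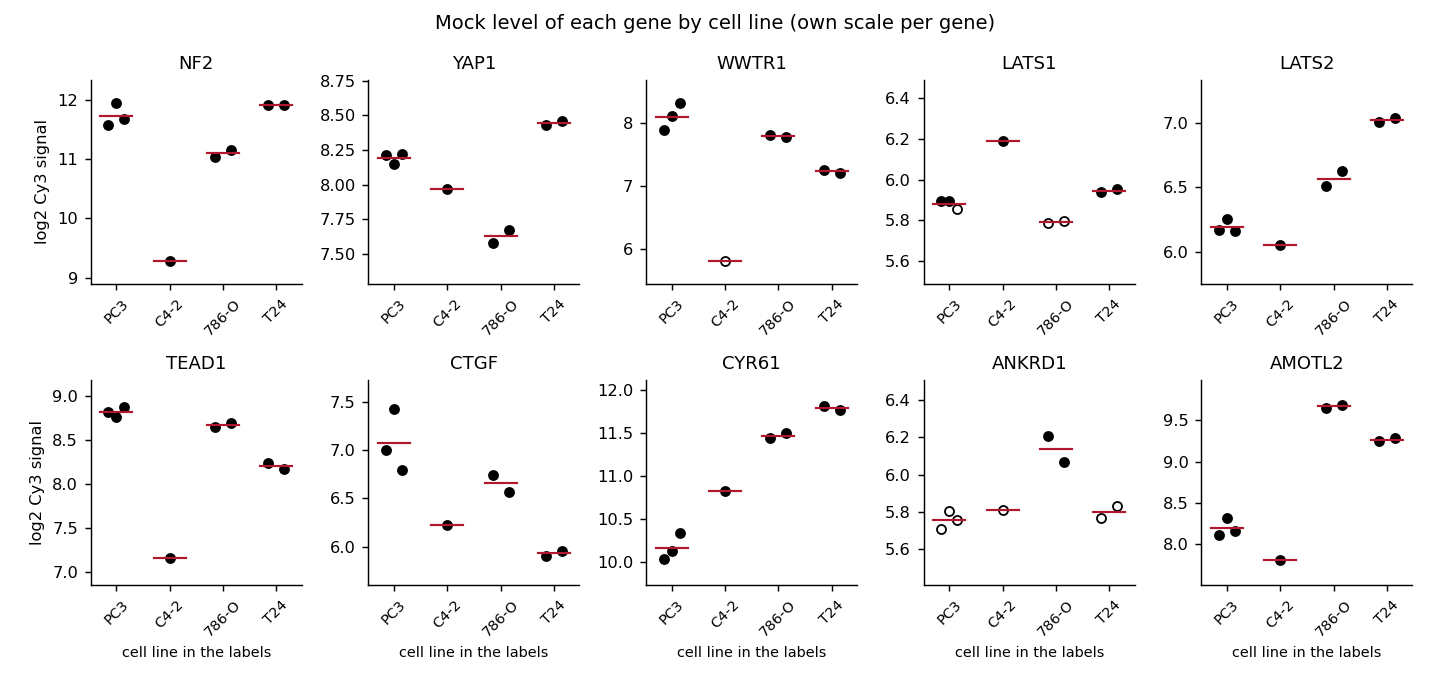
Log2 Cy3 signal of mock cells for each of the 10 genes by cell line, each panel on its own axis. Points are arrays (3 of PC3, 1 of C4-2, 2 of 786-O and 2 labelled T24), open where not well above background, and red lines are means; NF2, WWTR1 and TEAD1 are lowest in C4-2, and YAP1 in 786-O.

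All 10 genes differed among the 4 lines by limma's F test at an adjusted p under 0.05, in a table where 70.8% of 22625 genes did. By pair of lines, 6 of 10 differed between C4-2 and PC3 (2 higher and 4 lower in C4-2; 52.7% of all genes), 6 between 786-O and PC3 (40.8%) and 6 between T24 and PC3 (34.7%). Between 786-O and C4-2 there were 8 (41.8%), between T24 and C4-2 8 (41.9%) and between T24 and 786-O 4 (26.7%). Without the PC3 mock of the 24 h bisamide array 9 genes differed, CTGF being lost. Without the arrays labelled T24, an alternative chosen after seeing the data, all 10 still differed among the other 3 lines, where 66% of all genes did. In the lists beside them, 23 of 27 upstream genes, 4 of 5 TEAD and VGLL genes, all 13 further targets and all 6 ezrin-related genes differed, against the same 70.8%. Of the further targets, AXL was at 5.996 in C4-2 and 9.50 to 10.21 in the other lines, and MYOF at 5.78 and not well above background in C4-2 and 9.92 to 11.19 in the others. GADD45A was highest in C4-2 instead, at 10.61 against 8.18 to 9.38. Other targets stood apart in other lines: F3 and IGFBP3 were highest in 786-O, at 10.48 and 11.255, and NUAK2 in T24, at 10.35.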

How the data were processed

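Per the file headers, the authors scanned the arrays with Agilent Feature Extraction 11.5.1.1; the deposited intensities are mean signals and local background medians of each channel, not normalized. A log10 ratio (Cy5 over Cy3) that the scanner software made from background-subtracted, dye-normalized signals was deposited too. The series table held this same ratio (largest difference 0 over 62976 features, median 0 on each array), so both count once. Here the intensities were corrected with normexp (offset 50) and loess in limma 3.58.1 (R 4.3.3), giving log2 ratios. Control spots and 126 to 181 outlier spots per array were dropped, and the remaining spots of a probe were averaged. A gene was represented by its brightest probe. Of the 13 probes, all but 1 matched RefSeq by accession, for names only; coordinates of probes are GRCh37. A gene well above background in 1 group alone has a bound, open to dye bias. Mock levels were tested by limma (eBayes with trend, Benjamini-Hochberg over 22625 genes).

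The 10 genes, the lists and the tests were chosen with earlier results of these data known. By rule, all 10 genes, any list gene past 1.0 in size and the 5 genes most like NF2 were named; other list genes were named after their values were seen. A further cell type marker is not reported here. The fits were tested on simulated data. The alternatives were other background corrections, median centring, the scanner's ratio, the mean over probes, each ratio minus its median over other arrays, other filters, a threshold of 1.0, other scalings of Cy3, each array as its own mock sample and leaving out each PC3 mock. No block for slide was possible on 1 slide.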

Additional observations from a re-analysis of the deposited data

Results flagged for a closer look

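CYR61 lay on opposite sides of 0 with both strands of miR-140 in the arrays labelled T24: its log2 ratio was −0.77 under the 5p strand and 0.53 under the 3p strand. Each strand had 1 array, the strands have different seeds, and the difference was not tested. The raw Cy3 signals of the mock were 3819 and 3694, and the raw Cy5 signals 4445 and 11320. With median centring in place of loess CYR61 was at 0.18 and 1.56 and the median over all genes at 0.36 and 0.46. The sign under the 5p strand thus depends on the normalization, but CYR61 stayed below that median there and above it under the 3p strand. The renal markers PAX8 and PAX2 were well above background on both arrays, and their part in these values was not tested.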

How the results depend on the processing

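No paired analysis was possible because a treatment had a single array. The authors' series table is identical to the scanner's own ratio and is not given again, and a block for slide was not run, all arrays being on 1 slide. Unless named, the cause of a change was not tested. Series of values begin with both bisamide times, then give C4-2, miR-125b-1-3p, the 5p and the 3p strand in 786-O, and the 5p and the 3p strand in T24.

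Median centring in place of loess moved most. The median of all genes went to 0.46, 0.44, 0.31, 0.43, −0.03, 0.18, 0.36 and 0.46. NF2 went to 0.41, 0.43, 0.80 and 0.34 on the first 4 arrays and to −1.63, 0.078 and 0.98 on the last 3, which turned it above 0 with bisamide, miR-125b-1-3p and miR-140-5p; CYR61 with miR-140-5p reversed to 0.18. The median of the 10 genes went to 0.42, 0.41, 0.39 and 0.57 on the first 4 arrays and to 0.11, 0.31 and 0.62 on the last 3. Genes of the set below −0.5 went to 0 on both bisamide arrays and with miR-140-5p, and genes above 0.5 to 4, 3, 4 and 6 on the first 4 arrays and to 3, 4 and 7 on the last 3. The median of all genes itself lay near 0.5 on several of these arrays. The share of all genes past 0.5 was not computed for the alternative ratios. These counts and those below thus describe the processing and are no result about the set.

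With each ratio minus its median over the other 7 arrays, NF2 was at −0.019, −0.023, 0.74, 0.019, 0.59, −1.61, −0.39 and 0.47. Genes below −0.5 went to 0 at 48 h of bisamide, 2 with miR-532-5p and 1 with miR-140-5p, and genes above 0.5 to 0, 2 and 1 at 48 h, in C4-2 and with miR-532-5p. With all probes of a gene averaged NF2 was at −1.29 with miR-532-3p and −0.53 with miR-140-5p, and no gene was below −0.5 with bisamide.

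An offset of 50 draws dim ratios toward 0 by construction. With an offset of 0 or plain subtraction, genes below −0.5 went to 0 at 48 h and 2 with miR-532-5p, and genes above 0.5 to 3 in C4-2, 2 with miR-532-3p and 2 with miR-140-3p. The medians were then −0.19 and −0.19 at 48 h and 0.17 and 0.18 with miR-199-3p. With no background correction genes below −0.5 went to 0 at 48 h, and genes above 0.5 to 2 in C4-2 and with miR-532-3p. With the scanner's own ratio genes below −0.5 went to 2 at 24 h and with miR-532-5p, genes above 0.5 to 3 in C4-2 and 2 with miR-532-3p, and the medians to −0.27 at 48 h, 0.16 in C4-2 and −0.25 with miR-532-5p. The median over measured genes was 0.17 with miR-199-3p. A threshold of 1.0 left NF2 with miR-532-3p alone and put the other counts at 0, by construction.

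For mock levels the count of 10 genes stayed within 9 to 10 under every alternative run, including other scalings of Cy3, no filter and each PC3 mock left out; CTGF without the PC3 mock of the 24 h array was the exception. Depth limits LATS1 and ANKRD1, whose signals lay near background.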
